A study of Mus musculus with 12 samples.

Results

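The genes described here are 9 components of the circadian clock that sit around its positive arm and its second loop. They are the activators Arntl (BMAL1), Clock and Npas2, the REV-ERB genes Nr1d1 and Nr1d2, the ROR gene Rora, the DEC genes Bhlhe40 (DEC1) and Bhlhe41 (DEC2), and Gm129, an older symbol of Ciart, which encodes CHRONO. They were chosen by name, and all 9 were found among the 23420 gene symbols counted. Their abundance was measured in mouse liver with the QuantSeq 3′ mRNA approach, which counts transcripts by their 3′ ends, in Siah2 KO and wild type mice. SIAH2 is a ubiquitin ligase, and the question put to these livers was whether its loss alters gene expression shortly after REV-ERBα protein reaches its daily peak, in both sexes.

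Wild type females (WTF), Siah2 KO females (KOF), wild type males (WTM) and Siah2 KO males (KOM) were each represented by 3 mice, 12 in all. All mice had a C57BL/6 background, were about 20 weeks old, ate normal chow freely and lived in a light and dark cycle with equal light and dark phases. Livers were taken at zeitgeber time (ZT) 10, that is 10 h after lights on. The Siah2 KO groups carried the homozygous Siah2 null genotype in every cell, and the wild type mice came from a related line that was bred apart after a heterozygous intercross, so genotype and line cannot be told apart. The methods describe individual livers while the sample labels speak of RNA pooled from 3 mice, and each sample is treated here as 1 mouse named by its number. Without further information on how the mice were raised together, p-values measure the spread between these samples.

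In the clock of most mammalian cells, BMAL1 pairs with CLOCK or with its paralog NPAS2 and binds E-boxes to switch on genes for its own repressors. REV-ERB and ROR proteins compete for the same response elements, where REV-ERBs repress and RORs activate, and Arntl, Clock and Npas2 are among the genes they control. The DEC proteins and CHRONO are encoded by E-box genes themselves and feed back as repressors of CLOCK:BMAL1, and in liver this network sets the daily timing of much of lipid, bile acid and glucose metabolism. Transcripts of Arntl, Clock and Npas2 are known to be low in the late day, when Nr1d2, Nr1d1 and the E-box genes are past or near their maximum.

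On GRCm38.p6, the RefSeq build that corresponds to mm10, Arntl lies on chromosome 7 (113178471 to 113314126), Clock on chromosome 5 (76209868 to 76305603) and Npas2 on chromosome 1 (39193702 to 39363240). Nr1d1 lies on chromosome 11 (98767932 to 98775377), Nr1d2 on chromosome 14 (18204056 to 18239106) and Rora on chromosome 9 (68653404 to 69388246). Bhlhe40 (108660629 to 108666925) and Bhlhe41 (145858243 to 145865420) share chromosome 6, and Gm129 lies on chromosome 3 (95878500 to 95882257).

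To show which of these control elements lie near each member, the promoter windows of RefSeq were searched on both strands for 4 sequences. A window held 300 bases, 250 before and 50 from an annotated transcription start on. The searched letters were CACGTG for the E-box, CACGTT for an E-box variant, TTATGTAA for the D-box, and AGGTCA for the core of the element that REV-ERB and ROR proteins share. No matches overlapped each other in the members. Of 32851 promoter windows from 27025 genes, 7.15% held the E-box, 4.68% the variant, 0.938% the D-box and 16.3% the REV-ERB and ROR core. Of the members, 8 had an entry, with 11 windows between them, and Bhlhe40 had none. The 3 windows that carried E-box letters are shown, with the bases before the start, because none was a window of an activator. For Arntl, 30 bases after its second start are shown around the REV-ERB and ROR core. Each line is written 5′ to 3′ on the strand of the gene, and capitals mark the matched motif. For Gm129, 221 of the 250 bases are shown, because another Ciart transcript begins before the listed start.
Gm129, chr3:95882258-95882478, minus strand: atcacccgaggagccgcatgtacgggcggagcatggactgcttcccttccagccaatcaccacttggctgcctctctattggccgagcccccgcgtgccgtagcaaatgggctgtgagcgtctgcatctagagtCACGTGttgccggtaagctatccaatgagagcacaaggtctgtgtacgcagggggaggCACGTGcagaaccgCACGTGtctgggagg
Bhlhe41, chr6:145865421-145865670, minus strand: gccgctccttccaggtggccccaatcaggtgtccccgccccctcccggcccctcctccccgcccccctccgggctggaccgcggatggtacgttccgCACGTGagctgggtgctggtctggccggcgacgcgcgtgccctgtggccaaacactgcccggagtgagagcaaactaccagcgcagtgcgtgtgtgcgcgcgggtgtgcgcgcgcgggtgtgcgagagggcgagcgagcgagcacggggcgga
Nr1d1, chr11:98775378-98775627, minus strand: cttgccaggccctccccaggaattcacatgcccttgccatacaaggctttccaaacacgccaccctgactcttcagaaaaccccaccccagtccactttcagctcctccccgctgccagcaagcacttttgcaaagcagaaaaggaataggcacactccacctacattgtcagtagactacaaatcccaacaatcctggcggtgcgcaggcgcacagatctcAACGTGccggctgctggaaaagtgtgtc
Arntl, chr7:113207530-113207559, plus strand: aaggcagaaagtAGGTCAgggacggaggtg

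The Gm129 window held the E-box 3 times, at 116, 58 and 44 bases before the start, and only 29 of all windows, or 0.0883%, held it 3 or more times. In Bhlhe41 the E-box stood once, 153 bases before the start. The Nr1d1 window had no match to CACGTG and 1 match to the variant on the opposite strand, 28 bases before the start. Arntl, on the other hand, had no E-box letters in either of its windows and carried 1 REV-ERB and ROR core, 32 bases after its second annotated start. This core was also present in Nr1d2, 77 bases before its start, and in the third window of Clock, on the opposite strand. Npas2 and Rora had no match to any of the 4 motifs, and no window of a member held the D-box. The Nr1d1 window overlaps the long noncoding RNA gene Gm31862, and the Gm129 window lies within the long noncoding RNA gene C920021L13Rik. A match is a run of letters and does not show that a protein binds there.

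**Figure D1:**
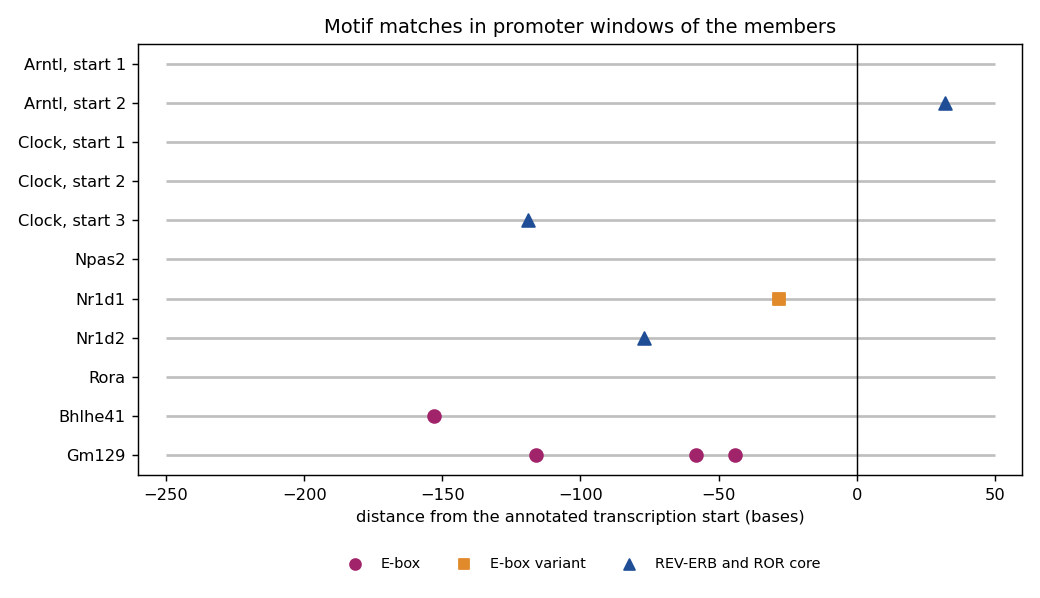
Positions of motif matches in the 11 promoter windows of 8 members, as distance from the annotated transcription start in bases; circles are E-boxes, squares the E-box variant and triangles the core of the REV-ERB and ROR element. Gm129 has 3 E-boxes, at 116, 58 and 44 bases before the start, and Bhlhe41 has 1.

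Between 1293688 and 4056144 reads per mouse fell on genes, with a median of 2670267.5. The ribosomal RNA precursor Rn45s took between 5.68% and 17.9% of them. All 6 hepatocyte markers (Alb, Apoa1, Ttr, Serpina1a, Tat and Cyp2e1) were detected in every group, and their summed level was between 28683 and 45199 CPM (counts scaled to library size, with TMM factors over the 12 libraries). The 6 markers of Kupffer and other immune cells summed to between 74.8 and 771 CPM, with ranges from 439 to 585 in WTF, from 318 to 771 in KOF, from 74.8 to 571 in WTM and from 97.2 to 217 in KOM. The 4 endothelial markers summed to between 107 and 137 CPM in WTF and between 85.9 and 103 CPM in KOF without overlap, and to between 67.4 and 113 CPM in WTM and 70.6 and 93.1 CPM in KOM. The 4 stellate cell markers summed to between 129 and 346 CPM and the 4 bile duct markers to between 6.41 and 24.98 CPM, and of these the bile duct sums of the males did not overlap, with 18.0 to 24.98 CPM in WTM and 11.5 to 17.8 CPM in KOM. Of 3 red blood cell markers, the globin genes Hba-a1 and Hbb-b1 were at 0 in all groups, whereas Alas2, a heme synthesis gene, lay between 20.7 and 24.9 CPM in WTF, 8.39 and 19.0 CPM in KOF, 83.4 and 104 CPM in WTM and 101 and 153 CPM in KOM. Alas2 thus separated the sexes, and KOF were below WTF. Of 3 fat markers Plin1 was at 0 in all groups, and the list summed to between 1.43 and 9.68 CPM. Of 4 pancreatic acinar markers Prss1 and Cpa1 were at 0 in all groups, and the list summed to between 10.7 and 56.9 CPM, with overlap in both sexes. WTF 1091 stood apart from the other libraries, with a TMM factor of 0.847 against values from 0.982 to 1.06, and with the fewest genes, 11886, once all libraries were thinned to equal depth, against 12034 to 13548 in the others. Siah2 itself lay between 12.1 and 16.8 CPM in WTF and between 9.48 and 12.4 CPM in KOF, and between 16.7 and 27.0 CPM in WTM and between 9.31 and 17.0 CPM in KOM. These tags come from the 3′ end, and where the deletion lies is not stated in the methods or labels, so this does not check the genotypes. The deposited samples of the females and of the males form separate runs of sample numbers, whereas their mouse numbers interleave. Whether the sexes were prepared or sequenced apart is not stated. If they were, sex and such a batch cannot be told apart.

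At ZT10 the 9 members spanned a wide range of abundance, with 1 REV-ERB and 1 DEC gene above all the others. A QuantSeq read comes from a transcript end and does not depend on its length, so CPM values were compared between genes without a length correction. The reads carried no molecular identifiers, and how well each 3′ end was captured and mapped was not checked. Nr1d2, which encodes REV-ERBβ, was the most abundant member at 155.8 ± 26.0 CPM (mean ± SD over 12 mice). Bhlhe40 followed with 54.5 ± 15.2 CPM and Clock with 17.2 ± 6.01 CPM, and Nr1d2 exceeded Bhlhe40, and Bhlhe40 exceeded Clock, in 12 of 12 mice without overlap of their ranges. Below these, Bhlhe41 had a mean of 13.8 ± 7.84 CPM, Nr1d1 of 10.7 ± 4.88 CPM, Rora of 5.18 ± 2.96 CPM, Gm129 of 5.06 ± 2.93 CPM, Arntl of 2.52 ± 1.81 CPM and Npas2 of 0.655 ± 0.780 CPM. Neighbours in this lower part of the order overlapped, and Rora, for instance, exceeded Gm129 in 5 of 12 mice. Arntl exceeded Npas2 in 11 of 12 mice. The plot of CPM by mouse shows these levels for each gene and group.

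**Figure D2:**
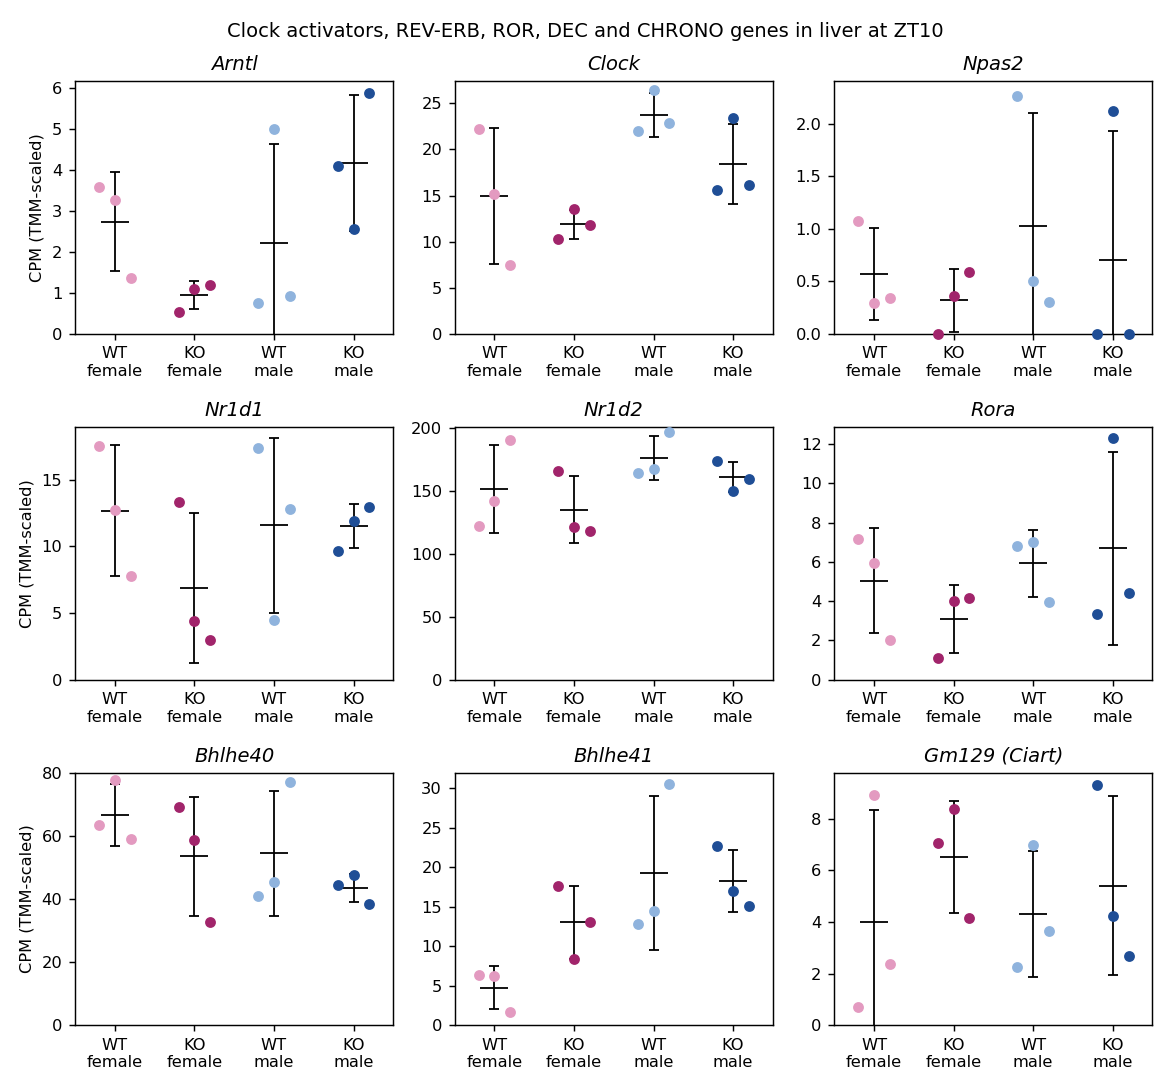
CPM with TMM scaling (vertical axis, from 0, a separate scale for each gene) of the 9 members in each of the 12 livers; points are mice, ordered by mouse number, and black bars are the mean and SD of 3 mice, with the lower arm hidden where it would pass below 0. Bhlhe41 is lowest in WT females, and Arntl is lower in all 3 KO females than in any WT female or KO male. In WT males 1055 and 1087, Arntl is as low as in KO females.

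The activators came first in the comparison of genotypes. Arntl encodes BMAL1, the obligate partner in the activating pair. In WTF 1089, 1090 and 1091 it was at 3.58, 3.26 and 1.35 CPM, and in KOF 1070, 1104 and 1105 at 0.543, 1.09 and 1.18 CPM. All KOF mice were thus below all WTF mice, but the KOF values rest on 2, 3 and 2 reads and WTF 1091 on 4 reads. Among males, Arntl was at 0.757, 4.99 and 0.916 CPM in WTM 1055, 1086 and 1087 and in KOM 1075, 1076 and 1081 at 4.09, 2.55 and 5.86 CPM. In males the groups overlapped because WTM 1086 was high, and the 3 KOM mice lay above WTM 1055 and 1087. These WTM values rest on 1 and 3 reads and lie within the range of the KOF values. The male change and the difference between the sexes therefore lean on few reads. The female difference gave an exact permutation p of 0.1, two-sided, which is the smallest that 3 against 3 mice allow. Arntl did not pass the filter on low counts in the female comparison. In males, its edgeR log2 fold change was 0.95 ± 0.65 (SE, n = 3 per group), with an adjusted p of 1.0. Subtracting the male from the female change gave -2.52 on the log2 scale (SE 1.02, 95% interval from -4.68 to -0.37), with an unadjusted p of 0.0244 and an edgeR adjusted p of 0.261, and so did not pass the threshold of 0.05.

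Clock encodes the histone acetyltransferase partner of BMAL1. In WTF 1089, 1090 and 1091 it was at 22.2, 15.1 and 7.42 CPM, and in KOF 1070, 1104 and 1105 at 10.3, 13.5 and 11.8 CPM. The KOF values lay inside the range of the WTF values. Male values were 21.9, 26.5 and 22.9 CPM in WTM 1055, 1086 and 1087, against 15.6, 23.4 and 16.1 CPM in KOM 1075, 1076 and 1081. The male groups overlapped through KOM 1076 alone. The log2 fold change was -0.33 ± 0.41 in females (SE, edgeR adjusted p = 0.756) and -0.39 ± 0.25 in males (adjusted p = 1.0), and the sexes differed by 0.06 with an interval from -0.94 to 1.05. In WTF, Clock followed the number of genes detected at equal depth, which was 13548 in 1089, 13100 in 1090 and 11886 in 1091. Among KOM it was highest in 1076, which had 12919 genes against 12059 and 12034. In KOF it did not follow this number, as Clock was highest in 1104 with 12676 genes while 1105 had 13315. With group means removed, Pearson's r of Clock in log2 CPM with this number was 0.91 over 12 mice. The part of this difference between libraries in the level of Clock was not tested. Without WTF 1091, Clock was higher in both remaining WTF mice than in all KOF mice, with a log2 fold change of -0.65 and an edgeR adjusted p of 0.170.

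Npas2, the paralog that can replace CLOCK, was barely detected. Over 3 libraries each, 5 reads were counted in WTF, 2 in KOF, 5 in WTM and 5 in KOM, and 3 libraries had no read. A library with 0 reads allows up to 3 reads, which is 0.815 CPM in KOF 1070, 1.12 CPM in KOM 1075 and 0.733 CPM in KOM 1081. These limits cover counting error only. Its highest values, 2.27 CPM in WTM 1055 and 2.13 CPM in KOM 1076, stood for 3 and 5 reads, and a difference between genotypes was not detectable at this depth.

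Next were the REV-ERB genes, whose products repress Arntl and recruit the NCoR and HDAC3 corepressor complex. Nr1d1, which encodes REV-ERBα, was at 17.5, 12.8 and 7.76 CPM in WTF 1089, 1090 and 1091, and at 13.3, 4.38 and 2.96 CPM in KOF 1070, 1104 and 1105. KOF 1104 and 1105 were below all WTF mice, on 12 and 5 reads, whereas KOF 1070 exceeded 2 of the WTF mice. In males, Nr1d1 was at 17.4, 4.50 and 12.8 CPM in WTM 1055, 1086 and 1087, and in KOM 1075, 1076 and 1081 at 9.68, 11.9 and 12.9 CPM. The wild type males thus spread widely around the KOM values, with WTM 1086 resting on 9 reads. The log2 fold change of Nr1d1 was -0.79 ± 0.53 in females (SE, edgeR adjusted p = 0.519) and 0.03 ± 0.39 in males (adjusted p = 1.0). The difference between the sexes was -0.80, with an interval from -2.29 to 0.69. KOF 1070 weighed on the female value, which was -1.72 without this mouse, with an edgeR adjusted p of 0.351.

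Nr1d2 was at 122, 142 and 190 CPM in WTF 1089, 1090 and 1091 and at 166, 122 and 118 CPM in KOF 1070, 1104 and 1105. In males it was at 164, 167 and 196 CPM in WTM 1055, 1086 and 1087, and at 174, 150 and 159 CPM in KOM 1075, 1076 and 1081. The groups overlapped in both sexes. As the most deeply counted member, with between 199 and 651 reads per mouse, Nr1d2 gave the narrowest intervals. Its log2 fold change was -0.14 in females, with an interval from -0.68 to 0.40, and -0.14 in males, with an interval from -0.47 to 0.19. In WTF its order was the reverse of that of Clock and of the number of genes detected at equal depth. The ratio of Nr1d2 to Nr1d1 reads within a mouse ranged from 6.94 to 39.8, with geometric means of 12.4 in WTF, 24.0 in KOF, 17.5 in WTM and 14.1 in KOM. The female groups overlapped in this ratio, with an exact permutation p of 0.2 (n = 3 per group, two-sided). The highest ratio, in KOF 1105, rests on 5 Nr1d1 reads.

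Rora encodes RORα, the activator that opposes the REV-ERBs at shared elements. It was at 7.15, 5.94 and 2.02 CPM in WTF 1089, 1090 and 1091 and at 1.09, 4.01 and 4.15 CPM in KOF 1070, 1104 and 1105. Rora was at 6.81, 6.99 and 3.97 CPM in WTM 1055, 1086 and 1087, and in KOM 1075, 1076 and 1081 at 3.35, 12.3 and 4.40 CPM. Groups overlapped in both sexes, and the female overlap came from WTF 1091. The log2 fold change was -0.79 ± 0.64 in females (SE, edgeR adjusted p = 0.609) and 0.18 ± 0.52 in males (adjusted p = 1.0). With 4 to 29 reads per mouse, these estimates were imprecise, and the interval of the difference between the sexes reached from -2.82 to 0.87. With group means removed, Pearson's r of Rora in log2 CPM with the genes detected at equal depth was 0.84 over 12 mice. With the share of Rn45s it was 0.82, and KOM 1076, the mouse with the highest Rora, had 17.9% Rn45s. The part of these library differences in the level of Rora was not tested.

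The DEC genes encode repressors that bind E-boxes. Bhlhe40 was at 63.3, 77.8 and 59.0 CPM in WTF 1089, 1090 and 1091 and at 69.3, 58.8 and 32.6 CPM in KOF 1070, 1104 and 1105. In WTM 1055, 1086 and 1087 it was at 40.9, 45.4 and 76.9 CPM, and in KOM 1075, 1076 and 1081 at 44.3, 47.6 and 38.6 CPM. The groups overlapped in both sexes. The log2 fold changes were -0.30 ± 0.29 in females (SE, edgeR adjusted p = 0.681) and -0.36 ± 0.24 in males (adjusted p = 1.0).

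Bhlhe41 was the member with the largest female estimate among those tested. It was at 6.44, 6.23 and 1.69 CPM in WTF 1089, 1090 and 1091, and at 17.7, 8.39 and 13.0 CPM in KOF 1070, 1104 and 1105. Each KOF mouse was above each WTF mouse, but the WTF values rest on 18, 21 and 5 reads. The endothelial sum and Alas2 also differed between these groups without overlap, both lower in KOF, and their part in the values of Bhlhe41 and Arntl was not tested. In WTM 1055, 1086 and 1087 it was at 12.9, 14.5 and 30.5 CPM, and in KOM 1075, 1076 and 1081 at 22.7, 17.0 and 15.1 CPM, so the male groups overlapped and the WTF mice were the lowest of all 12. The female log2 fold change was 1.44 ± 0.50 (SE, 95% interval from 0.33 to 2.55), with an unadjusted p of 0.0158 and an edgeR adjusted p of 0.203, and with DESeq2 it was 1.47 with an adjusted p of 0.140. Neither passed the threshold, whereas edgeR without a filter on low counts gave an adjusted p of 0.0264. In males the log2 fold change was -0.16 ± 0.32 (SE, edgeR adjusted p = 1.0). The difference between the sexes was 1.58 ± 0.61 (SE), with an unadjusted p of 0.0197 and an edgeR adjusted p of 0.242.

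The ratio of the DEC paralogs within a mouse does not depend on how libraries are scaled. Its comparison between groups was not planned in advance. Reads of Bhlhe40 exceeded those of Bhlhe41 9.83, 12.5 and 35.0 times in WTF 1089, 1090 and 1091. In KOF 1070, 1104 and 1105 the ratio was 3.92, 7.0 and 2.50, in WTM 1055, 1086 and 1087 it was 3.18, 3.14 and 2.52, and in KOM 1075, 1076 and 1081 it was 1.95, 2.80 and 2.55. All WTF mice had a higher ratio than any other mouse. Of single genes, 23.4% had no overlap between WTF and KOF, and 22.7% had none between WTF and WTM. The share of gene pairs whose ratios do not overlap was not computed. The ratio uses the same Bhlhe41 reads as above and is not separate evidence. Its geometric means were 16.3 in WTF, 4.09 in KOF, 2.93 in WTM and 2.41 in KOM. Between genotypes the mean log2 ratio differed by -1.99 in females, with an exact permutation p of 0.1 (n = 3 per group, two-sided, the smallest possible), and by -0.28 in males, with an exact permutation p of 0.3. WTF 1091, the library that stood apart, had the highest ratio, which rests on 5 Bhlhe41 reads. Without WTF 1091 the female difference was -1.44 and the groups still did not overlap, beside 42.8% of single genes without overlap in that setting.

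**Figure D3:**
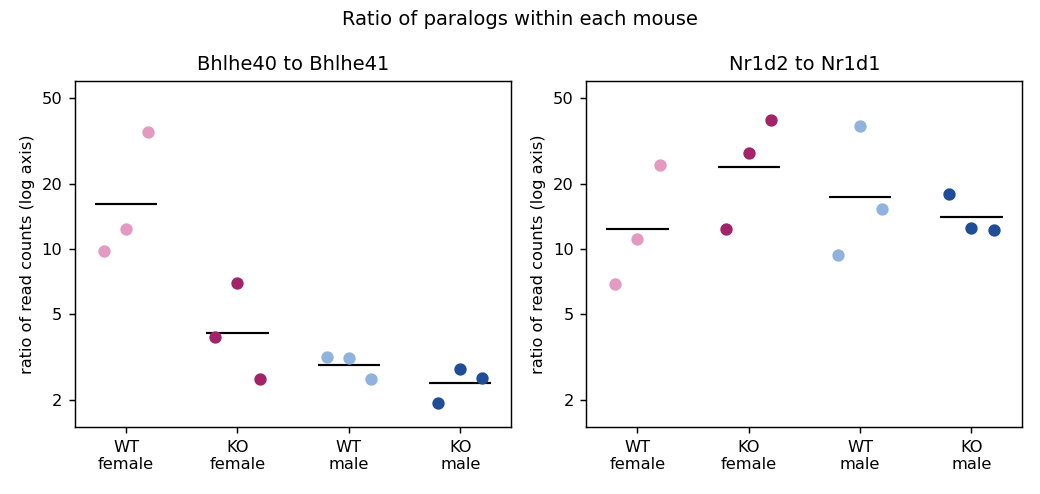
Ratio of read counts within each mouse (log axis) of Bhlhe40 to Bhlhe41 and of Nr1d2 to Nr1d1; points are mice and black lines are geometric means of 3 mice. The ratio of Bhlhe40 to Bhlhe41 is between 9.83 and 35.0 in WT females and between 1.95 and 7.0 in the other mice, while the ratios of Nr1d2 to Nr1d1 overlap.

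Gm129 encodes CHRONO, a repressor of CLOCK:BMAL1. It was at 0.715, 8.90 and 2.36 CPM in WTF 1089, 1090 and 1091 and at 7.07, 8.39 and 4.15 CPM in KOF 1070, 1104 and 1105. In WTM 1055, 1086 and 1087 it was at 2.27, 6.99 and 3.66 CPM, and in KOM 1075, 1076 and 1081 at 9.31, 4.25 and 2.69 CPM. Wild type mice varied widely and overlapped with KO mice in both sexes. The log2 fold change was 0.70 ± 0.69 in females (SE, edgeR adjusted p = 0.679) and 0.25 ± 0.55 in males (adjusted p = 1.0). Without WTF 1090 the female value was 2.10, with an edgeR adjusted p of 0.219.

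Counted over the members, SIAH2 loss gave no call at the threshold by edgeR in females, where 7 of the 9 were tested, in males, where 8 were tested, or with the sexes combined, where 7 were tested. The background was equally bare in females (0%) and in males (0%), and with the sexes combined 0.0111% of genes were called. At an unadjusted p under 0.05, 1 of 7 members was counted in females, beside 15.6% of all genes tested, and 0 of 8 in males, beside 4.05%. DESeq2 called 0 of 5 members in females, beside 3.70% of genes, and 0 of 9 in males, beside 0.0370%. In females it gave no adjusted p for Arntl, Npas2, Rora and Gm129. Groups did not overlap for 2 of 9 members in females, Arntl and Bhlhe41, beside 23.4% of genes tested, and for 0 of 9 in males, beside 8.93%. These shares are over genes that passed the filter, which Arntl and Npas2 did not in females, nor Npas2 in males. Of the 7 members that passed in females, only Bhlhe41 had no overlap. For the difference between the sexes, edgeR called 0 of 8 members, beside 0.224% of genes, and 2 of 8 had an unadjusted p under 0.05, beside 14.2%. The members' shares in females given so far were thus near or below those of all genes. The median log2 fold change of the 7 members tested in females was -0.30 beside -0.03 for all genes, and of the 8 tested in males it was -0.06 beside -0.01. With the sexes combined, 0 of 7 members had an unadjusted p under 0.05, beside 5.67% of genes. DESeq2 called none of 5 members in the difference between the sexes, beside 3.32%. Without a filter, edgeR called 1 of 9 members in females, Bhlhe41, beside 2.82%, a higher share that rests on 1 gene. In a bulk liver sample, fewer cells of a type and less RNA per cell cannot be told apart.

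**Figure D4:**
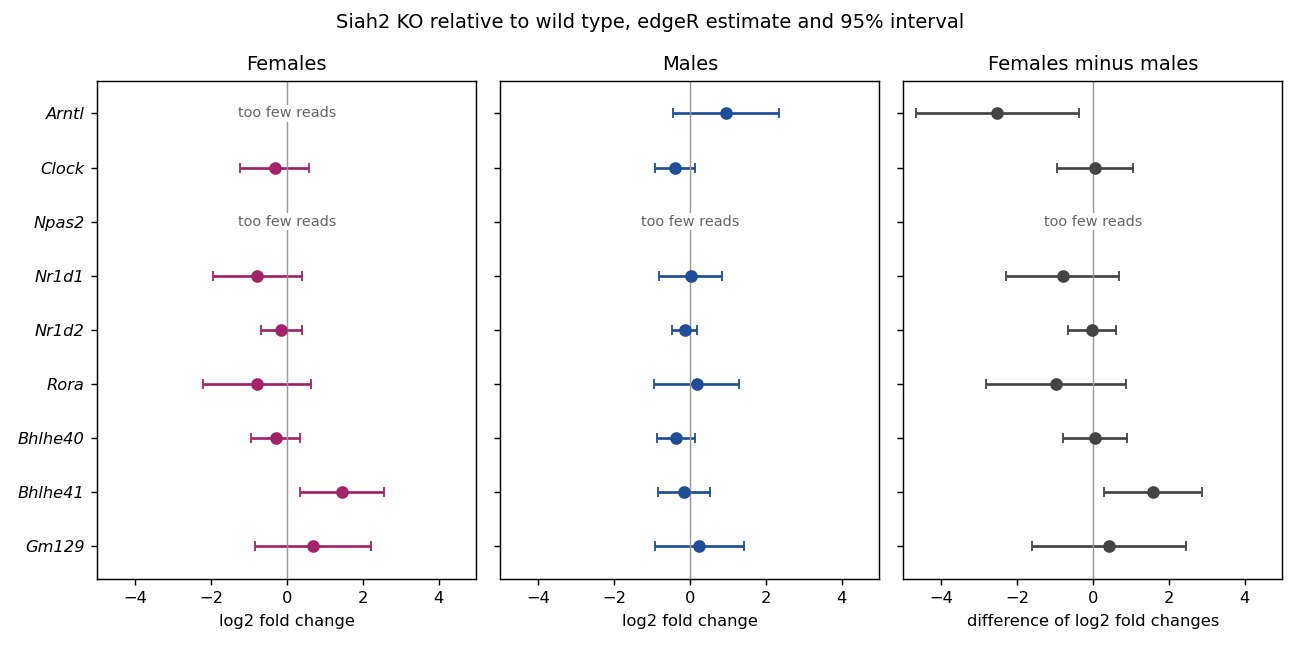
Log2 fold change of Siah2 KO relative to wild type in females and in males, and the difference between them (horizontal axes), for each member; points are edgeR estimates and bars 95% intervals, with 3 mice per group. The intervals of Bhlhe41 in females (0.33 to 2.55) and of Arntl and Bhlhe41 in the difference between the sexes exclude 0, but no adjusted p passes the threshold.

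Comparing the sexes within a genotype placed the WTF mice apart for Bhlhe41. In wild type livers, its log2 fold change in females relative to males was -2.04 ± 0.51 (SE, 95% interval from -3.18 to -0.89, edgeR adjusted p = 0.0947), and the groups did not overlap. The same comparison with DESeq2 gave -2.07 with an adjusted p of 0.0138, and without WTM 1087, the mouse with the highest Bhlhe41, DESeq2 gave -1.54 and did not make this call (adjusted p = 0.621, beside 0.974% of genes called). In KO livers the value was -0.47 ± 0.30 (SE, edgeR adjusted p = 0.356) and the groups overlapped. The females carried less Clock than the males in both genotypes by estimate, with -0.67 ± 0.38 in wild type (SE, adjusted p = 0.442) and -0.63 ± 0.27 in KO mice (adjusted p = 0.158). In KO mice, Clock was lower in every female than in every male, and so was Arntl, which had too few reads for the fit, each with an exact permutation p of 0.1 (n = 3 per group, two-sided). Between the KO sexes the summed hepatocyte and immune markers, higher in KOF, and Alas2 did not overlap either, and between wild type sexes Alas2 did not. Their part in these differences was not tested. Among the other members tested, estimates between wild type females and males were between -0.22 for Nr1d2 and 0.31 for Arntl, and those between KO females and males reached -1.18 for Rora. By edgeR, 0 of 8 members were called between wild type females and males, beside 1.39% of genes, and 0 of 7 between KO females and males, beside 11.5%. DESeq2 called 1 of 7 members in the first comparison, beside 3.74% of genes, and none of 7 in the second, beside 9.91%. Without a filter, edgeR called Bhlhe41 in the first, beside 3.17%, and Arntl in the second, beside 7.56%. At an unadjusted p under 0.05, 1 of 8 members was counted in wild type mice, beside 15.2%, and 1 of 7 in KO mice, beside 26.1%. Groups did not overlap for 1 of 9 members in wild type mice, beside 22.7% of genes, and for 2 of 9 in KO mice, beside 30.4%. These shares are over genes that passed the filter. Npas2 did not pass it in either genotype, and Arntl, counted among the 2, did not pass it in KO mice.

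The other genes of the pathway were examined as 5 lists. Of 11 repressors and output genes, 9 were tested in females, where 7 had higher and 2 lower estimates in KO livers, with a median log2 fold change of 0.63 beside -0.03 for all genes. None was called by edgeR, and 4 had an unadjusted p under 0.05, beside 15.6% of genes. Per3, a period gene, had the largest of these estimates at 2.31 ± 0.35 (SE, edgeR adjusted p = 0.0793), and it was the only one of the list that DESeq2 called. Per3 was at 11.1, 5.34 and 6.07 CPM in WTF 1089, 1090 and 1091 and at 29.9, 46.7 and 33.8 CPM in KOF 1070, 1104 and 1105, without overlap. Per2, which encodes a core repressor, had a log2 fold change of 0.81 (adjusted p = 0.280), and Hlf, which encodes a D-box activator, one of 0.63 (adjusted p = 0.216). Nfil3, which encodes the D-box repressor E4BP4 and is a REV-ERB target, had one of -0.97 (adjusted p = 0.268). In males, 8 of this list were tested, with 3 higher and 5 lower, none called and none with an unadjusted p under 0.05.

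Among 6 liver genes driven by E-boxes, 5 were tested in females, and 4 had higher and 1 had lower estimates. Wee1, which encodes a cell cycle kinase, had a log2 fold change of 1.44 ± 0.45 (SE, edgeR adjusted p = 0.173), and Usp2, which encodes a deubiquitinase, one of 1.12 ± 0.41 (adjusted p = 0.216). In males, 3 of 5 had higher estimates and none had an unadjusted p under 0.05. Among 7 genes known as targets of REV-ERB or ROR, 3 had higher and 4 had lower estimates in females, and Avpr1a, a vasopressin receptor gene, had a log2 fold change of -0.89 (adjusted p = 0.127). Of 8 kinases and ligases that act on PER and CRY, 4 had higher and 4 lower estimates, and of 9 tested cofactors 2 had higher and 7 lower estimates, with no unadjusted p under 0.05 in either list in females. In males, the cofactor gene Sirt1 had a log2 fold change of -0.84 and Ppargc1a, a ROR coactivator listed with the REV-ERB and ROR targets, one of -0.67, both with an adjusted p of 1.0. In the difference between the sexes, the genes reported individually with an unadjusted p under 0.05 were Per3 (2.16), Wee1 (2.17), Usp2 (1.37), Ppargc1a (0.95), Avpr1a (-1.05) and Elovl3 (-1.20), and edgeR called none of them, with adjusted p from 0.0819 to 0.333. DESeq2 called Per3 in this difference.

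The patterns most like those of the members over the 12 mice were found among genes that averaged 10 CPM or more, by Pearson's r of log2 CPM, as a description without a test. For Bhlhe41 they were Zc3h7a (r = 0.97), C77080 (r = 0.95) and Srsf4 (r = 0.94), and for Clock they were Agfg2 (r = 0.93), Fam108b (r = 0.92) and Rexo2 (r = 0.92). Drap1 (r = 0.91), Tmx2 (r = 0.89) and Ccnd2 (r = 0.89) were closest to Nr1d1. Cacul1 (r = 0.89), Tmem14c (r = 0.87) and Cyb5b (r = 0.86) were closest to Nr1d2, and Hibch (r = 0.87), Rabgap1l (r = 0.87) and Fam109a (r = 0.85) to Bhlhe40. No member was among the genes nearest to another, but Rora, Gm129, Arntl and Npas2 could not be, because their means were under 10 CPM. The highest r between members was 0.79, between Clock and Rora. These values share their libraries, depth and scaling.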

How the data were processed

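Raw read counts per gene were deposited in 2 tables, 1 per sex. Per the methods, the authors trimmed, mapped and counted reads on Illumina's BaseSpace platform, and the submitters' processing notes name STAR, DESeq and the build mm10, without versions. No normalization had been applied to the deposited counts. Spreadsheet software had turned 27 symbols into dates, which held between 0.228% and 0.272% of a library's counts and stayed in the totals. The reads carried no molecular identifiers.

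From the counts, edgeR 4.0.16 in R 4.3.3 was fitted to all genes for each comparison, after filterByExpr and TMM scaling, with its two-sided quasi-likelihood test, with Benjamini-Hochberg adjustment over all genes tested and a threshold of 0.05. DESeq2 1.42.0, which the study used, and limma-voom (limma 3.58.1) were alternatives, beside RLE scaling, no filter, at least 10 counts in every library, thinned libraries, a fit of all 12 mice and each mouse left out. DESeq2 with mice left out and the alternatives for lists, ratios and permutation tests were added after the data were seen. The comparison of ratios itself was not planned in advance either. Levels are CPM with 1 TMM scaling over 12 libraries, and log CPM used a prior count of 3. Single genes and ratios were compared with exact permutation tests. Standard errors were derived from the F statistic. Fits were tested on simulated data.

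The members, the lists and the rule for naming genes were chosen with earlier results of these data known. All members are named, and from the other lists genes with an unadjusted p under 0.05 in females, in males or in the difference between them, and the 3 nearest patterns of members with a mean of at least 10 CPM. Promoters came from RefSeq (GRCm38.p6). Protein sequences were not used here. One gene of the other lists is counted but not reported individually. Python 3.11.15 with pandas 2.3.3, numpy 2.4.6 and matplotlib 3.10.9 was used for tables and figures.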

Additional observations from a re-analysis of the deposited data

How the results depend on the processing

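Over all comparisons, 717 log2 fold changes of members that passed the filter in the main fit were recomputed under an alternative. Of these, 652 kept their direction and their side of the threshold, 54 changed sign and 11 came to pass the threshold. DESeq2 estimates without an adjusted p were counted as not passing. Outside these counts are Npas2 in every comparison, and Arntl in females, with the sexes combined and between KO sexes, which had no main fit. With no filter beyond 1 count, edgeR called 1 member in females (Bhlhe41) and 1 between KO females and males (Arntl, log2 fold change -2.23, adjusted p = 0.0339). Between wild type females and males, 1 member, Bhlhe41, was called by DESeq2, with no filter and in the fit of all 12 mice, beside 5.15% of all genes in the last. Leaving out a mouse gave 0 members in females, in males, in the difference between the sexes and with both sexes combined, and from 0 to 1 between the sexes within either genotype. That call was Bhlhe41 without WTF 1091 (-1.66, adjusted p = 0.0370, beside 7.73% of genes called) in wild type mice, and in KO mice Nr1d1 without KOF 1070 (-1.60, adjusted p = 0.0416, beside 5.90%) or Arntl without KOF 1105 (beside 11.2%) or KOM 1076 (beside 7.50%). DESeq2 with a mouse left out called 1 member between wild type females and males in 5 of 6 settings, beside 1.57% to 10.4% of genes, and 0 without WTM 1087, beside 0.974%. Its estimates for Bhlhe41 were from -2.34 to -1.54. Members without overlap ranged from 2 to 5 in females (4 of 9 without WTF 1091, beside 42.8% of genes, and 5 of 9 without KOF 1070, beside 32.2%), from 0 to 2 in males, from 1 to 2 between wild type sexes and from 2 to 5 between KO sexes (5 of 9 without KOF 1070, beside 39.1%). With a mouse left out, the share of genes without overlap was from 30.6% to 42.8% in females and from 16.2% to 21.0% in males. It was from 29.6% to 41.8% between wild type sexes and from 38.0% to 43.8% between KO sexes. These shares are over genes that passed the filter in the main fit, whereas the counts of members also take in those that did not.

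Of the other pathway genes, 1 (Per3) was called in females by DESeq2, beside 3.70% of all genes, and by the fit of all 12 mice, beside 4.57%. With no filter, 3 (Per3, Usp2 and Wee1) were called, beside 2.82%. Leaving out a mouse gave from 0 to 7 with edgeR and from 1 to 6 with DESeq2, the highest without WTF 1091 in both (7 of 35 tested, beside 9.55% of all genes, and 6 of 26, beside 12.2%). In the other settings edgeR called 0% of all genes and DESeq2 from 0.733% to 3.58%. In the difference between the sexes, DESeq2 called 1 (Per3), beside 3.32% of all genes, and edgeR with no filter 2, beside 1.82%. A mouse left out gave from 0 to 4, with 4 of 35 without WTF 1091, beside 5.15% of all genes. Between wild type sexes 2 were called, beside 1.39% of all genes. With at least 10 counts in every library 1 was called, beside 0.728%, and with thinned libraries 1, beside 1.34%. From 1 to 7 were called with a mouse left out, 7 of 34 being without WTF 1091, beside 7.73% (DESeq2, from 1 to 6, 6 of 26 being without WTF 1091, beside 10.4%). Between KO sexes 10 of 34 were called, beside 11.5%, 6 with thinned libraries (beside 8.62%), 4 in the fit of all 12 mice (beside 3.34%), and from 4 to 10 with a mouse left out (beside 5.14% to 11.2%).

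None of the values that changed sign had passed the threshold. The ranges with a mouse left out pool edgeR and DESeq2 in females and between wild type sexes, and are from edgeR alone in the other comparisons. With a mouse left out, Clock (from -0.65 to 0.097, by edgeR alone to 0.078) and Nr1d2 (from -0.31 to 0.042) crossed 0 in females. Nr1d1 (from -0.33 to 0.35), Rora (from -0.54 to 0.50), Bhlhe40 (from -0.51 to 0.0079), Bhlhe41 (from -0.34 to 0.41) and Gm129 (from -0.37 to 0.75) crossed 0 in males. Clock (from -0.26 to 0.47), Nr1d2 (from -0.17 to 0.17), Bhlhe40 (from -0.31 to 0.31) and Gm129 (from -0.047 to 1.80) crossed 0 in the difference between the sexes. Rora (from -0.67 to 0.071) crossed 0 with both sexes combined. Arntl (from -0.21 to 1.63), Nr1d1 (from -0.28 to 0.49), Rora (from -0.58 to 0.20) and Gm129 (from -1.55 to 0.38) crossed 0 between wild type sexes. By edgeR alone, the range of Gm129 there was from -0.34 to 0.38. Gm129 (from -0.040 to 0.97) crossed 0 between KO sexes. In males, Rora was at -0.014 with limma-voom and Nr1d1 at -0.61 with thinned libraries. In the difference between the sexes, Nr1d2 was at 0.0017 with DESeq2, at 0.00037 with RLE scaling and at 0.0076 with at least 10 counts in every library, Bhlhe40 at -0.0063 with limma-voom and at -0.089 with thinned libraries, and Clock at -0.93 with thinned libraries.

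No paired analysis was possible because the mouse numbers are unique to each mouse and shared by no pair of groups. The cause of these shifts was not tested. Depth limits Npas2, Arntl, Rora and Gm129, which had fewer than 31 reads in every library. It also limits Bhlhe41, with 5 reads in WTF 1091, and Nr1d1, with 5 reads in KOF 1105.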
